A study of Homo sapiens with 12 samples.

Results

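Ribosome biogenesis genes encode the RNA polymerase I machinery, the small nucleolar ribonucleoproteins (snoRNPs) and the assembly factors that build ribosomes in the nucleolus. The genes described here are 57 symbols chosen by name, of which 40 were annotated on the arrays, among 14884 genes tested. The other 17, which were not analysed here, were POLR1A, POLR1B, POLR1C, POLR1E, UBTF, NPM1, NOP56, RRP9, DKC1, UTP14A, UTP15, UTP20, TSR1, PES1, GNL3, PPAN and DDX18. The 40 genes comprised 4 of 9 listed for RNA polymerase I transcription, 3 of 4 nucleolar scaffold genes, 4 of 7 snoRNP genes, 13 of 17 small subunit genes and 16 of 20 large subunit genes. No filter on low values was applied, and 38 of the 40 genes had 1 transcript cluster each.

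HCC70 and MDA-MB-231 are established human breast cancer cell lines of the triple-negative type. Each line was exposed for 72 hours to 500 nM JQ1 or to the vehicle alone, 0.1% DMSO. JQ1 inhibits the BET family of chromatin readers by competing with acetylated histones for their bromodomains. The 4 groups were HCC70 with JQ1, HCC70 with vehicle, MDA-MB-231 with JQ1 and MDA-MB-231 with vehicle, with 3 Human Gene 2.0 ST arrays in each, and every array received label made from 150 ng of total RNA.

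Separate cultures are not stated for the arrays within a group, so p-values reflect the spread among these samples, which may be technical. Within a group, arrays had correlations of 0.989 to 0.995 over the genes tested. On the log2 scale, array medians lay between 6.16 and 6.19 with JQ1 and between 6.22 and 6.26 with vehicle. In earlier results of these data, 3 arrays numbered 3 (HCC70 JQ1, MDA-MB-231 JQ1 and MDA-MB-231 vehicle) stood apart from their groups, and counts are given with and without them. KRT5, a basal keratin, averaged 8.53 in HCC70 vehicle and 4.67 in MDA-MB-231 vehicle, and the mesenchymal filament gene VIM averaged 7.13 in HCC70 vehicle and 10.42 in MDA-MB-231 vehicle. Of the 4 epithelial markers measured, KRT5 and EPCAM were higher in HCC70 vehicle than in MDA-MB-231 vehicle (limma adjusted p under 0.05). KRT18 was lower there (10.41 against 10.68), and KRT8 did not pass. The hormone receptor genes ESR1 and PGR averaged between 3.64 and 5.09 in all 4 groups, beside array lower quartiles of 4.73 to 4.87. CD14, the single blood cell marker measured, averaged 8.14 with JQ1 and 8.52 with vehicle in HCC70, where it fell by 0.38 ± 0.096 (limma adjusted p = 0.012), and 5.99 with JQ1 and 5.72 with vehicle in MDA-MB-231; its part in the results was not tested.

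Ribosome production starts with transcription of the ribosomal RNA repeats by RNA polymerase I. The precursor is then modified by snoRNPs, cut and folded within the small subunit processome, and joined by assembly factors that mature the small and large subunits. MYC, a transcription factor that binds the E-box hexamer CACGTG with its partner MAX, is well known to raise many genes of this programme in proliferating and cancer cells. BET proteins are known to sustain MYC transcription in many tumour lines.

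MYC fell in both lines under JQ1, with the more negative change in HCC70. On the log2 scale MYC measured 6.65, 6.65 and 6.40 in HCC70 with JQ1, against 7.32, 7.50 and 7.63 in HCC70 with vehicle. In MDA-MB-231 it measured 8.42, 8.30 and 8.28 with JQ1, against 8.72, 8.75 and 8.75 with vehicle. The JQ1 and vehicle arrays did not overlap in either line. The change was -0.92 ± 0.10 (standard error, SE, of the limma coefficient, n = 3 arrays per group) in HCC70, a 1.89-fold fall (limma with Benjamini-Hochberg adjustment, adjusted p = 3e-05), and -0.41 ± 0.10 in MDA-MB-231, a 1.33-fold fall (adjusted p = 0.0076). The effect in HCC70 minus that in MDA-MB-231 was -0.50 ± 0.14 (limma adjusted p = 0.030). With the replicate number as a block this difference did not pass (adjusted p = 0.073), nor without HCC70 JQ1 replicate 3, HCC70 vehicle replicate 2 or 3, MDA-MB-231 JQ1 replicate 1, or MDA-MB-231 vehicle replicate 1 or 2 (adjusted p = 0.058 to 0.079), nor without the 3 arrays that stood apart (adjusted p = 0.078). In vehicle, MYC was lower in HCC70 than in MDA-MB-231 by 1.26 ± 0.10 on the log2 scale, a 2.39-fold difference (limma adjusted p = 2.6e-07).

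**Figure D1:**
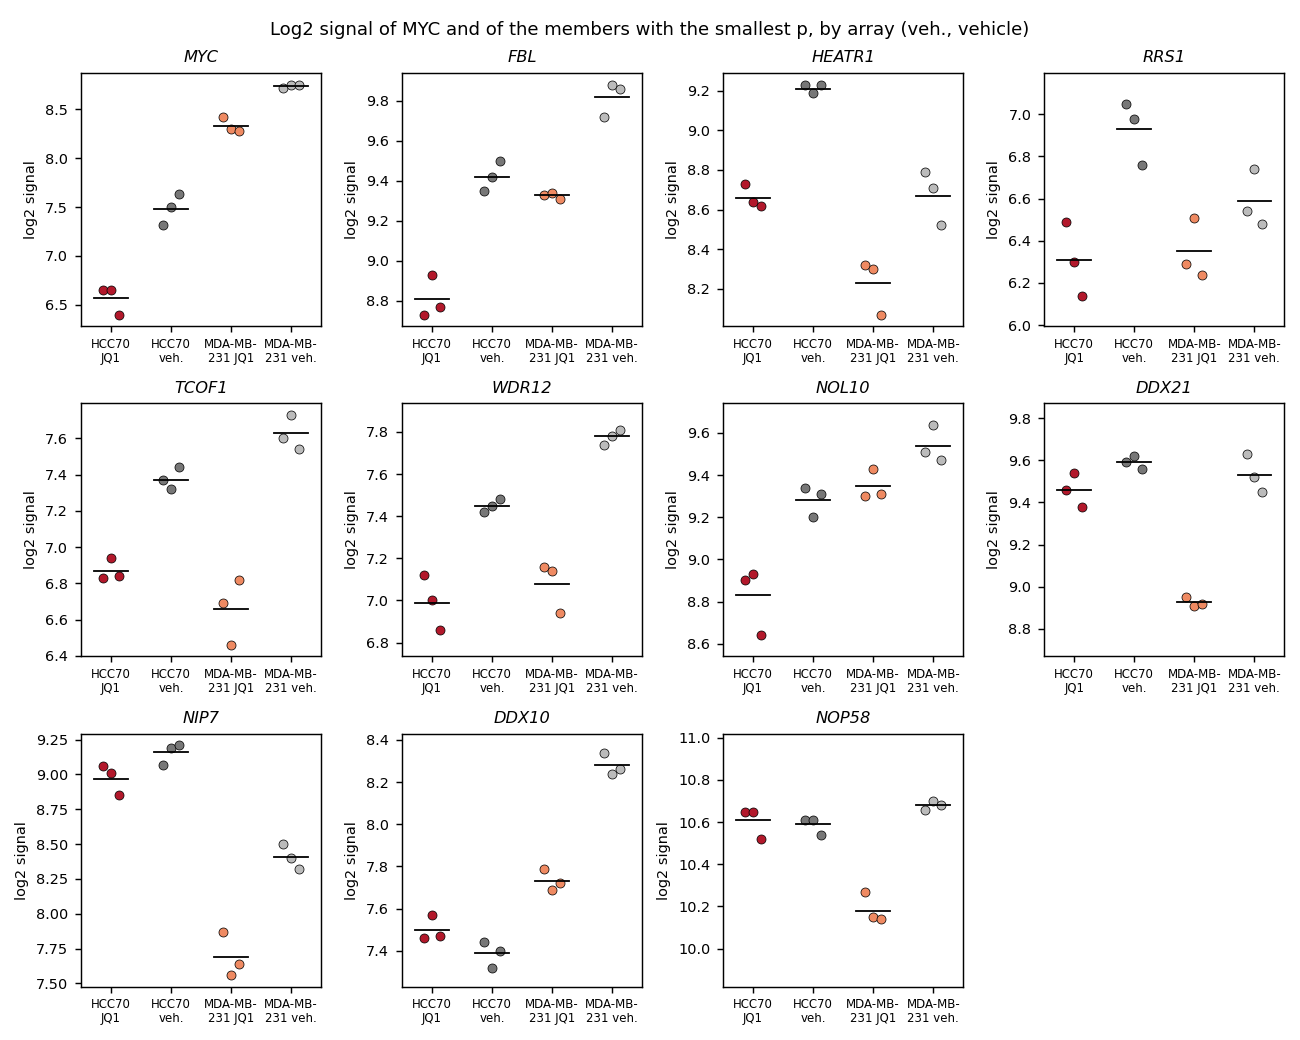
Log2 signal (y axis, own range in each panel) of MYC and of the 10 members with the smallest p in either line, by array (points, 3 per group) with group means (bars), for HCC70 with JQ1 and vehicle and MDA-MB-231 with JQ1 and vehicle. MYC was lower with JQ1 in both lines, and NOP58 and DDX10 were lower with JQ1 in MDA-MB-231, where they averaged 10.18 against 10.68 and 7.73 against 8.28.

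The hexamer CACGTG was searched in the RefSeq promoter windows (build GRCh38.p14) of 250 bases before and 50 after each start. It reads the same on both strands, so a search of 1 strand covers both. Windows were on hand for 46 of the 57 listed genes, and 17 of these 46 (37.0%) held the hexamer, 15 of them within 50 bases of the start. Among 27305 genes with a window, 8.77% held it in any window, and 3.51% within 50 bases of a start. Of all 35116 windows 7.26% held it. Of 10749 genes tested on the arrays with a window, 1187 held it. In a list of other ribosome biogenesis genes, which shares no member, 17 of 50 genes held it (34.0%), and among ribosomal protein genes 3 of 43 did (6.98%).

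Shown here are 150 bases, from 100 before to 50 after the start, for the 7 measured genes that fell in MDA-MB-231 and hold the hexamer within 50 bases of a start. Each is given 5′ to 3′ on the gene's strand, with the hexamer in capitals.
BYSL (chr6:41921399-41921548, plus strand): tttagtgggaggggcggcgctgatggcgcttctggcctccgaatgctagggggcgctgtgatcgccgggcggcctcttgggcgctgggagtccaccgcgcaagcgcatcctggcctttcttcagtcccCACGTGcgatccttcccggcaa
DDX21 (chr10:68956547-68956696, plus strand): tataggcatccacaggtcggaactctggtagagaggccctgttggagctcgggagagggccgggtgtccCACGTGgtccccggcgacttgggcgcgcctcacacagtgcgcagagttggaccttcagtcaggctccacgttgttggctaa
FBL (chr19:39846330-39846479, minus strand): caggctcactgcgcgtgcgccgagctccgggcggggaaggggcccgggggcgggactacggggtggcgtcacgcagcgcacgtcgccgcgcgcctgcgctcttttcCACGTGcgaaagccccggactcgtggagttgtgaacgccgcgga
GAR1 (chr4:109815662-109815811, plus strand): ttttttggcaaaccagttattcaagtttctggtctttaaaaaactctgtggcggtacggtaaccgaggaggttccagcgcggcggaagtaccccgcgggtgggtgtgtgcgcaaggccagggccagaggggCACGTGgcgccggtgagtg
MRTO4 (chr1:19251705-19251854, plus strand): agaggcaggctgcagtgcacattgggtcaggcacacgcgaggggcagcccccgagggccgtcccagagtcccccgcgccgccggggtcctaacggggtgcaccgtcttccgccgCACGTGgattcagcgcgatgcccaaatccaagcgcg
MYBBP1A (chr17:4555335-4555484, minus strand): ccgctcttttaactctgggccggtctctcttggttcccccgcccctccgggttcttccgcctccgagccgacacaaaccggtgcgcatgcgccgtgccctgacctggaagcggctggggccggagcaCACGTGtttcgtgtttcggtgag
WDR43 (chr2:28894567-28894716, plus strand): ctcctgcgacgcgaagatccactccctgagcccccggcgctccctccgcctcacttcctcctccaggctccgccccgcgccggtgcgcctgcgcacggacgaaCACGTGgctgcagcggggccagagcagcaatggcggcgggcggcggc
The hexamer began at position +29 from the start (+1 is the first transcribed base) in BYSL, -31 in DDX21, +7 in FBL, +32 in GAR1, +15 in MRTO4, +28 in MYBBP1A and +4 in WDR43. A match is a string of letters and not evidence of binding. Of the 12 measured genes with the hexamer, 3 fell in HCC70 and 7 in MDA-MB-231, with median changes of -0.11 and -0.44, where 12.5% of all genes tested fell in HCC70 and 17.0% in MDA-MB-231. Of the 19 measured genes whose windows lack it, 5 fell in HCC70 and 13 in MDA-MB-231, with medians of -0.14 and -0.30. Of the 9 measured genes for which no window was on hand, 3 fell in HCC70 and 5 in MDA-MB-231, with medians of 0.00 and -0.28. Genes with and without the hexamer were thus both among those that fell in each line.

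In HCC70, a minority of the ribosome biogenesis genes passed the test for a change under JQ1. Of 40 genes 11 fell (27.5%) and 1 rose (2.50%), while 28 did not pass (limma, adjusted p under 0.05 over all genes). Over all genes tested, 12.5% were called lower and 9.18% higher, and the median change was -0.13 for the 40 genes and 0.01 over all genes. A negative change, called or not, was seen in 28 of the 40 genes, as in 7267 of all 14884 genes. The change of MYC was more negative than that of any of the 40 genes. The genes that fell were TCOF1, FBL, NHP2, HEATR1, WDR43, NOL10, NOC4L, WDR12, MRTO4, NOP16 and RRS1. Without the 3 arrays that stood apart, 10 genes fell, as did 1717 of all 14884 genes. In 18 of the 40 genes all 3 JQ1 arrays lay below all 3 vehicle arrays, as did those of 19.6% of all genes. In 5 genes (BOP1, DDX10, FTSJ3, NCL and NOLC1) they lay above, as in 17.8% of all genes.

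The clearest falls in HCC70 were in genes that act at different steps. FBL encodes fibrillarin, the methyltransferase of the box C/D snoRNPs. FBL measured 8.73, 8.93 and 8.77 with JQ1, against 9.35, 9.42 and 9.50 with vehicle in HCC70. It fell 1.53-fold (log2 change -0.61 ± 0.085, limma adjusted p = 0.00020). RRS1, an assembly factor that helps place the 5S particle in the large subunit, measured 6.49, 6.30 and 6.14 with JQ1 in HCC70, against 7.05, 6.98 and 6.76 with vehicle. RRS1 fell 1.54-fold (-0.62 ± 0.12, limma adjusted p = 0.0024). HEATR1, a subunit of the small subunit processome that is also needed for RNA polymerase I transcription, measured 8.73, 8.64 and 8.62 with JQ1 in HCC70, against 9.23, 9.19 and 9.23 with vehicle. Its JQ1 arrays lay tightly together and well below the vehicle arrays (-0.55 ± 0.096, limma adjusted p = 0.0011).

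TCOF1 encodes treacle, a nucleolar cofactor of ribosomal RNA synthesis that is mutated in Treacher Collins syndrome. TCOF1 measured 6.83, 6.94 and 6.84 with JQ1, against 7.37, 7.32 and 7.44 with vehicle in HCC70 (-0.51 ± 0.099, limma adjusted p = 0.0025). WDR12, a subunit of the PeBoW complex of large subunit maturation, measured 7.12, 7.00 and 6.86 with JQ1, against 7.42, 7.45 and 7.48 with vehicle in HCC70 (-0.46 ± 0.090, limma adjusted p = 0.0027). NOL10, a processome protein, measured 8.90, 8.93 and 8.64 with JQ1, against 9.34, 9.20 and 9.31 with vehicle in HCC70 (-0.46 ± 0.096, limma adjusted p = 0.0039). For these 3 genes the groups did not overlap. NOL10 has another, dimmer transcript cluster, whose change of -0.22 ± 0.14 in HCC70 did not pass (limma adjusted p = 0.34 over clusters with a gene symbol).

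Of the remaining falls in HCC70, NHP2, a core protein of the box H/ACA snoRNPs that guide pseudouridylation, changed by -0.43 ± 0.10. MRTO4, a placeholder for the stalk protein P0 on the maturing large subunit, changed by -0.43 ± 0.11, and NOP16, a nucleolar large subunit factor, by -0.38 ± 0.11. WDR43 changed by -0.35 ± 0.087 and NOC4L by -0.30 ± 0.086, both proteins of small subunit production. The adjusted p of these 5 genes lay between 0.0082 and 0.028 by limma. The calls of 4 of them ended when 1 array was left out. They were MRTO4 (without HCC70 JQ1 replicate 2 or 3 or vehicle replicate 3), NOP16 (without JQ1 replicate 2 or 3 or vehicle replicate 2 or 3), WDR43 (without vehicle replicate 2) and NOC4L (without any HCC70 array but JQ1 replicate 3).

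BOP1, a partner of WDR12 in the PeBoW complex, was the single member called higher in HCC70. BOP1 measured 7.86, 7.88 and 8.01 with JQ1, against 7.35, 7.54 and 7.76 with vehicle (0.37 ± 0.10, limma adjusted p = 0.021). Its other transcript cluster changed by 0.11 ± 0.12 and did not pass (adjusted p = 0.62 over clusters with a gene symbol), and averaging the clusters ended the call (adjusted p = 0.12). So did leaving out HCC70 vehicle replicate 1, HCC70 vehicle replicate 2 or HCC70 JQ1 replicate 3 (adjusted p = 0.062 to 0.095), or the 3 arrays that stood apart (0.091). In the RNA polymerase I group the largest positive value in HCC70 was that of NOLC1, a phosphoprotein that shuttles between nucleolus and cytoplasm and chaperones snoRNPs, at 0.19 ± 0.069 (limma adjusted p = 0.073). Among the nucleolar scaffold genes, 0 of 3 passed in HCC70. There NCL, which encodes the abundant nucleolar protein nucleolin, changed by 0.13 ± 0.077, LYAR by 0.08 ± 0.11 and the RNA helicase gene DDX21 by -0.13 ± 0.079, and all 3 had an unadjusted p above 0.05 (0.12 to 0.49).

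In MDA-MB-231, most ribosome biogenesis genes fell. Of 40 genes 25 fell (62.5%) and 0 rose, while 15 did not pass, beside 17.0% called lower and 10.8% called higher over all genes tested. The median change was -0.33 for the 40 genes (quartiles -0.54 and -0.18) and 0.02 over all genes. Of the 40 genes, 36 had a negative change, as did 7038 of all 14884 genes. No member changed by 1 or more on the log2 scale in either line. A more negative change than that of MYC was seen in 18 of the 40 genes, against 0 in HCC70. The change of MYC itself differed, at -0.41 in MDA-MB-231 and -0.92 in HCC70, and the share of all genes below it was not counted. In 26 genes all 3 JQ1 arrays lay below all 3 vehicle arrays, as did those of 21.3% of all genes, and in 0 genes they lay above, beside 16.7% of all genes. Without the 3 arrays that stood apart 20 genes fell, and after centring each array on its median also 20. Over all 14884 genes, 2415 fell without those arrays and 2091 fell after centring.

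By role, 3 of 4 genes listed for RNA polymerase I transcription (TCOF1, NOLC1 and MYBBP1A) and 2 of 3 nucleolar scaffold genes fell in MDA-MB-231. So did 4 of 4 snoRNP genes, 9 of 13 small subunit genes and 7 of 16 large subunit genes, beside 17.0% of all genes. The corresponding counts in HCC70 were 1, 0, 2, 4 and 4, beside 12.5% of all genes. No subunit of RNA polymerase I was measured, since POLR1A, POLR1B, POLR1C and POLR1E were not annotated. In bulk RNA, fewer cells expressing a gene and less of its RNA per cell cannot be told apart, and with equal RNA per array a change of total RNA per cell is not seen.

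**Figure D2:**
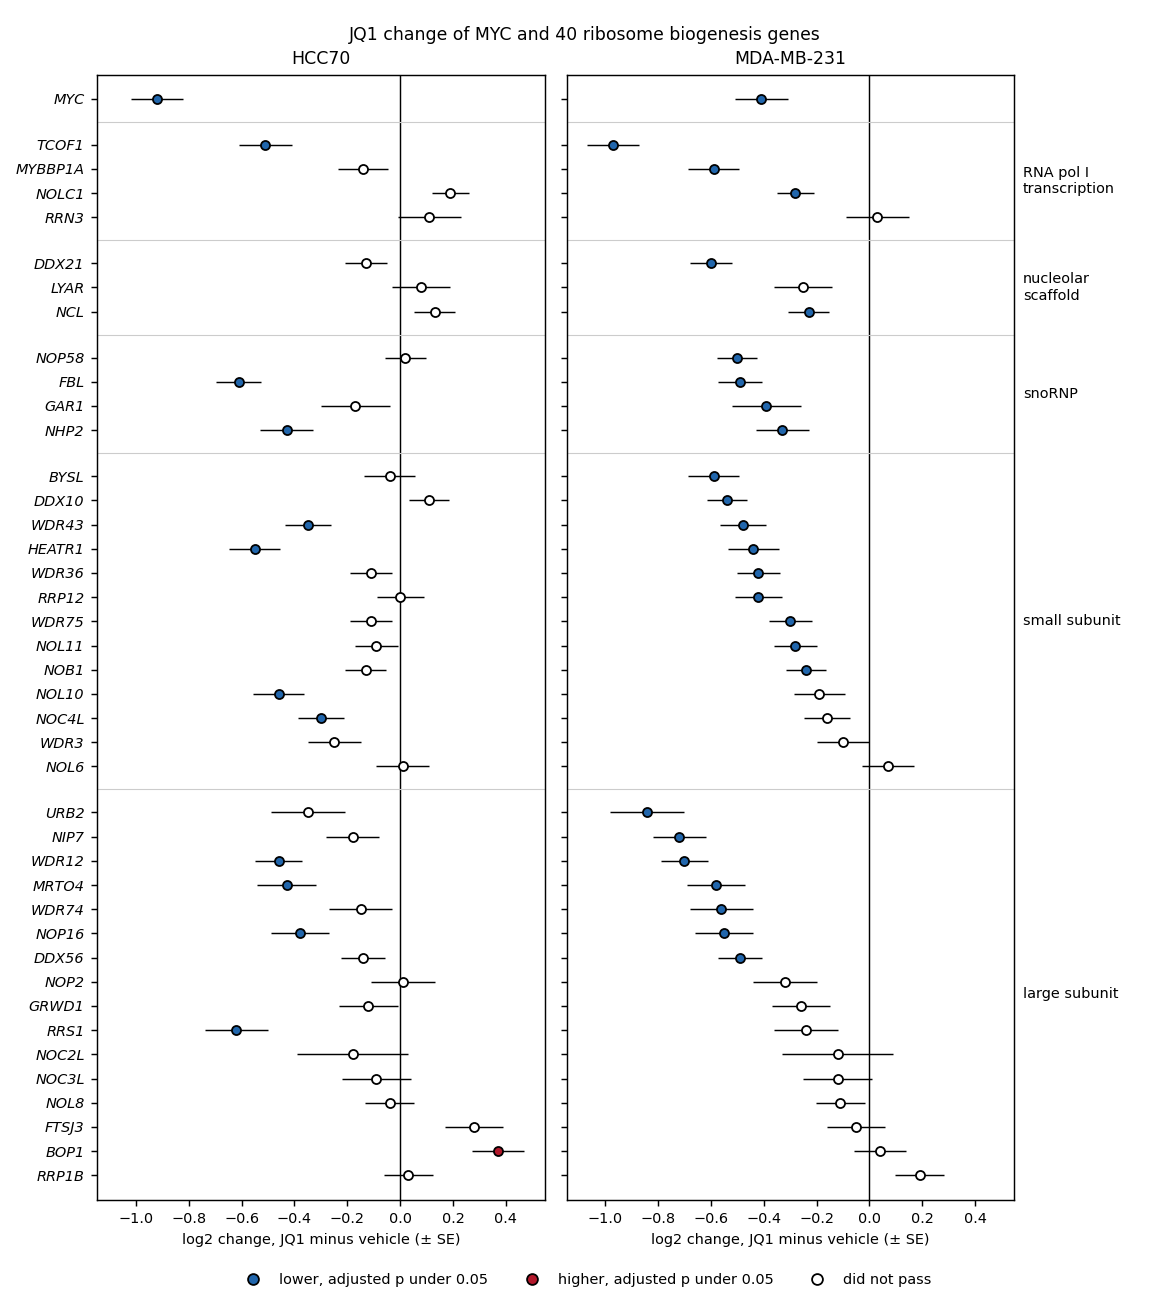
Log2 change with JQ1 (x axis, ± SE, n = 3 arrays per group) of MYC and the 40 genes, grouped by role, in HCC70 (left) and MDA-MB-231 (right), with genes called lower in blue and higher in red. Of the 40 genes, 11 were called lower and 1 higher in HCC70, and 25 lower and 0 higher in MDA-MB-231.

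TCOF1 had the largest fall of the members in MDA-MB-231. It measured 6.69, 6.46 and 6.82 with JQ1, against 7.60, 7.73 and 7.54 with vehicle, a 1.96-fold fall (-0.97 ± 0.099, limma adjusted p = 9.7e-06). WDR12 measured 7.16, 7.14 and 6.94 with JQ1, against 7.74, 7.78 and 7.81 with vehicle in MDA-MB-231 (-0.70 ± 0.090, limma adjusted p = 7.7e-05). Both genes thus fell in each line, with no overlap between JQ1 and vehicle arrays.

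The next members by p did not pass in HCC70. DDX21, a helicase that couples ribosomal RNA transcription to processing, measured 8.95, 8.91 and 8.92 with JQ1, against 9.63, 9.52 and 9.45 with vehicle in MDA-MB-231 (-0.60 ± 0.079, limma adjusted p = 8.3e-05). In HCC70 DDX21 measured 9.46, 9.54 and 9.38 with JQ1, against 9.59, 9.62 and 9.56 with vehicle. Those groups did not overlap either, by a smaller margin (-0.13 ± 0.079, limma adjusted p = 0.31). NIP7, a factor of pre-ribosomal RNA processing, measured 7.87, 7.56 and 7.64 with JQ1, against 8.50, 8.40 and 8.32 with vehicle in MDA-MB-231, a 1.64-fold fall (-0.72 ± 0.10, limma adjusted p = 0.00014). In HCC70 NIP7 measured 9.06, 9.01 and 8.85 with JQ1, against 9.07, 9.19 and 9.21 with vehicle, with no overlap (-0.18 ± 0.10, limma adjusted p = 0.25).

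DDX10, an RNA helicase of the small subunit processome, measured 7.79, 7.69 and 7.72 with JQ1, against 8.34, 8.24 and 8.26 with vehicle in MDA-MB-231 (-0.54 ± 0.076, limma adjusted p = 0.00015). In HCC70 DDX10 measured 7.46, 7.57 and 7.47 with JQ1, against 7.44, 7.32 and 7.40 with vehicle, so its JQ1 arrays there lay above the vehicle arrays, by a margin that did not pass (0.11 ± 0.076, limma adjusted p = 0.40). NOP58, a core protein of the box C/D snoRNPs, measured 10.27, 10.15 and 10.14 with JQ1, against 10.66, 10.70 and 10.68 with vehicle in MDA-MB-231 (-0.50 ± 0.076, limma adjusted p = 0.00031). NOP58 in HCC70 measured 10.65, 10.65 and 10.52 with JQ1, against 10.61, 10.61 and 10.54 with vehicle, and the groups overlapped.

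The other members of the RNA polymerase I and scaffold groups were MYBBP1A, NOLC1, RRN3, NCL and LYAR. MYBBP1A, a nucleolar MYB-binding protein, fell by 0.59 ± 0.095 on the log2 scale (limma adjusted p = 0.00041) and NOLC1 by 0.28 ± 0.069 (adjusted p = 0.0084). The call of NOLC1 ended with each line fitted alone (limma adjusted p = 0.052). RRN3, which carries RNA polymerase I to the promoter, changed by 0.03 ± 0.12 in MDA-MB-231 and did not pass (limma adjusted p = 0.89), and its probes may also read near-identical pseudogene copies. NCL fell by 0.23 ± 0.077 (limma adjusted p = 0.045), and the call ended with the replicate number as a block (adjusted p = 0.067), with centred arrays or quantile normalization (adjusted p = 0.15 for each), and without any of 9 arrays (adjusted p = 0.057 to 0.13). Those 9 arrays were HCC70 JQ1 replicate 2, the 3 HCC70 vehicle arrays, the 3 MDA-MB-231 JQ1 arrays and MDA-MB-231 vehicle replicates 1 and 2. LYAR changed by -0.25 ± 0.11 and did not pass (limma adjusted p = 0.13).

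All 4 measured snoRNP genes fell in MDA-MB-231. FBL measured 9.33, 9.34 and 9.31 with JQ1, against 9.72, 9.88 and 9.86 with vehicle (-0.49 ± 0.085, limma adjusted p = 0.00074). The box H/ACA genes GAR1 and NHP2 changed by -0.39 ± 0.13 and -0.33 ± 0.10 (limma adjusted p = 0.043 and 0.026). The call of GAR1 ended after centring (adjusted p = 0.083), without the 3 arrays that stood apart (0.086) and without any of 8 arrays (0.054 to 0.18), which were all 5 HCC70 arrays other than JQ1 replicate 3, MDA-MB-231 JQ1 replicates 1 and 3, and MDA-MB-231 vehicle replicate 2. That of NHP2 ended after centring (adjusted p = 0.068), without the 3 arrays that stood apart (0.088), and without MDA-MB-231 JQ1 replicate 2 or 3 or vehicle replicate 1 or 2 (0.052 to 0.10).

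Among the small subunit genes in MDA-MB-231, the largest fall was that of BYSL, which encodes bystin, an assembly factor of the small subunit, at 1.51-fold (-0.59 ± 0.097, limma adjusted p = 0.00050). WDR43 fell by 0.48 ± 0.087, HEATR1 by 0.44 ± 0.096, WDR36 by 0.42 ± 0.080 and the export factor RRP12 by 0.42 ± 0.089 on the log2 scale. HEATR1 measured 8.32, 8.30 and 8.07 with JQ1, against 8.79, 8.71 and 8.52 with vehicle in MDA-MB-231. WDR75 fell by 0.30 ± 0.081, NOL11, which supports RNA polymerase I transcription, by 0.28 ± 0.081, and NOB1, the nuclease that makes the last cut of the small subunit RNA, by 0.24 ± 0.077. The call of NOB1 ended after centring (adjusted p = 0.10) and without any MDA-MB-231 array but vehicle replicate 3, or without HCC70 JQ1 replicate 2 (0.052 to 0.12). That of NOL11 ended after centring (adjusted p = 0.075) and without MDA-MB-231 JQ1 replicate 2 or 3 or vehicle replicate 1 (0.065 to 0.087), and that of WDR75 without MDA-MB-231 JQ1 replicate 3 (adjusted p = 0.054). NOL10 measured 9.30, 9.43 and 9.31 with JQ1, against 9.51, 9.64 and 9.47 with vehicle in MDA-MB-231, a change of -0.19 ± 0.096 that did not pass (adjusted p = 0.17). Its dimmer cluster had the opposite sign in MDA-MB-231 and did not pass (0.22 ± 0.14, limma adjusted p = 0.27 over clusters with a gene symbol). NOC4L, WDR3 and NOL6 did not pass either, with values of -0.16, -0.10 and 0.07, the last being the highest of the group.

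Among the large subunit genes in MDA-MB-231, URB2 had the largest fall, at 1.79-fold (-0.84 ± 0.14, limma adjusted p = 0.00069). MRTO4 fell by 0.58 ± 0.11, WDR74 by 0.56 ± 0.12, NOP16 by 0.55 ± 0.11 and the RNA helicase gene DDX56 by 0.49 ± 0.082 on the log2 scale, with limma adjusted p between 0.00054 and 0.0028. Of the 9 large subunit genes that did not pass, values ran between -0.32 for NOP2, an RNA methyltransferase, and 0.19 for RRP1B. RRS1, with the largest fall of the members in HCC70, measured 6.29, 6.51 and 6.24 with JQ1, against 6.54, 6.74 and 6.48 with vehicle in MDA-MB-231, and those groups overlapped (-0.24 ± 0.12, limma adjusted p = 0.17). Within the same-numbered pairs RRS1 was lower with JQ1 by similar amounts, with differences of -0.25, -0.23 and -0.24, and it passed with the replicate number as a block (-0.24 ± 0.076, adjusted p = 0.046). BOP1 changed by 0.04 ± 0.10 in MDA-MB-231 (limma adjusted p = 0.84), and GRWD1, NOC3L, NOC2L, NOL8 and FTSJ3 lay between -0.26 and -0.05. GRWD1, which did not pass (-0.26 ± 0.11, limma adjusted p = 0.096), passed with the block (-0.26 ± 0.077, adjusted p = 0.038).

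In total 8 of the 40 genes fell in both lines, out of 11 that fell in HCC70 and 25 that fell in MDA-MB-231. They were TCOF1, FBL, NHP2, HEATR1, WDR43, NOP16, WDR12 and MRTO4. Of all genes tested, 1025 (6.89%) fell in both lines, out of 1863 that fell in HCC70 and 2532 that fell in MDA-MB-231. A further 3 genes, NOC4L, NOL10 and RRS1, were called in HCC70 but not in MDA-MB-231, and 17 fell in MDA-MB-231 without passing in HCC70. These counts come from the fit without the block. With it RRS1 passed in MDA-MB-231 too, whereas NOL10 (-0.19 ± 0.094, adjusted p = 0.18) and NOC4L (-0.16 ± 0.096, adjusted p = 0.26) did not. The 12 genes that fell in neither line in the fit without the block were BOP1, FTSJ3, GRWD1, LYAR, NOC2L, NOC3L, NOL6, NOL8, NOP2, RRN3, RRP1B and WDR3.

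The effect of JQ1 was then compared between the lines, as the effect in HCC70 minus that in MDA-MB-231, since a call in 1 line alone does not show a difference. Of the 40 genes 10 had a positive difference that passed and 0 a negative one, and over all genes tested 9.02% had a positive and 5.95% a negative difference. The difference was positive in 30 of the 40 genes, as in 7446 of all 14884 genes. Its median was 0.20 for the 40 genes, against 0.00 over all genes. MYC, in the same test, had the opposite sign (-0.50 ± 0.14). All 10 genes fell in MDA-MB-231, and 9 of them did not pass in HCC70. TCOF1 was the exception and fell in both lines, by 0.51 in HCC70 and by 0.97 in MDA-MB-231.

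The largest difference was that of DDX10, with changes of 0.11 in HCC70 and -0.54 in MDA-MB-231 and a difference of 0.65 ± 0.11 (limma adjusted p = 0.0013). NOLC1 changed by 0.19 in HCC70 and by -0.28 in MDA-MB-231, a difference of 0.47 ± 0.098 (adjusted p = 0.0058). NOP58 differed by 0.52 ± 0.11 (limma adjusted p = 0.0059), DDX21 by 0.47 ± 0.11 (adjusted p = 0.012) and BYSL by 0.55 ± 0.14 (adjusted p = 0.016). These 5 calls held under every alternative run, leaving out any 1 array included.

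The other 5 calls of a difference were weaker. NIP7 differed by 0.53 ± 0.14 (limma adjusted p = 0.023), which ended without HCC70 JQ1 replicate 1 or 2, HCC70 vehicle replicate 1, MDA-MB-231 JQ1 replicate 2 or MDA-MB-231 vehicle replicate 1 (adjusted p = 0.056 to 0.060). MYBBP1A differed by 0.45 ± 0.13, RRP12 by 0.42 ± 0.13, TCOF1 by 0.47 ± 0.14 and NCL by 0.35 ± 0.11, with limma adjusted p of 0.039 to 0.047. Their calls ended without any of 8 to 11 of the 12 arrays. With the replicate number as a block the differences of TCOF1 (adjusted p = 0.095) and NCL (0.075) did not pass. Leaving out HCC70 vehicle replicate 1 or MDA-MB-231 vehicle replicate 1 left 5 genes, and leaving out any 1 of HCC70 JQ1 replicates 1 and 2, HCC70 vehicle replicate 2, MDA-MB-231 JQ1 replicate 2 and MDA-MB-231 vehicle replicate 2 left 6. Without the 3 arrays that stood apart, 9 genes had a positive difference that passed, beside 1433 of all 14884 genes. For FBL and HEATR1, which fell in both lines, the differences of -0.12 ± 0.12 and -0.11 ± 0.14 did not pass, which does not show that the lines respond alike.

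**Figure D3:**
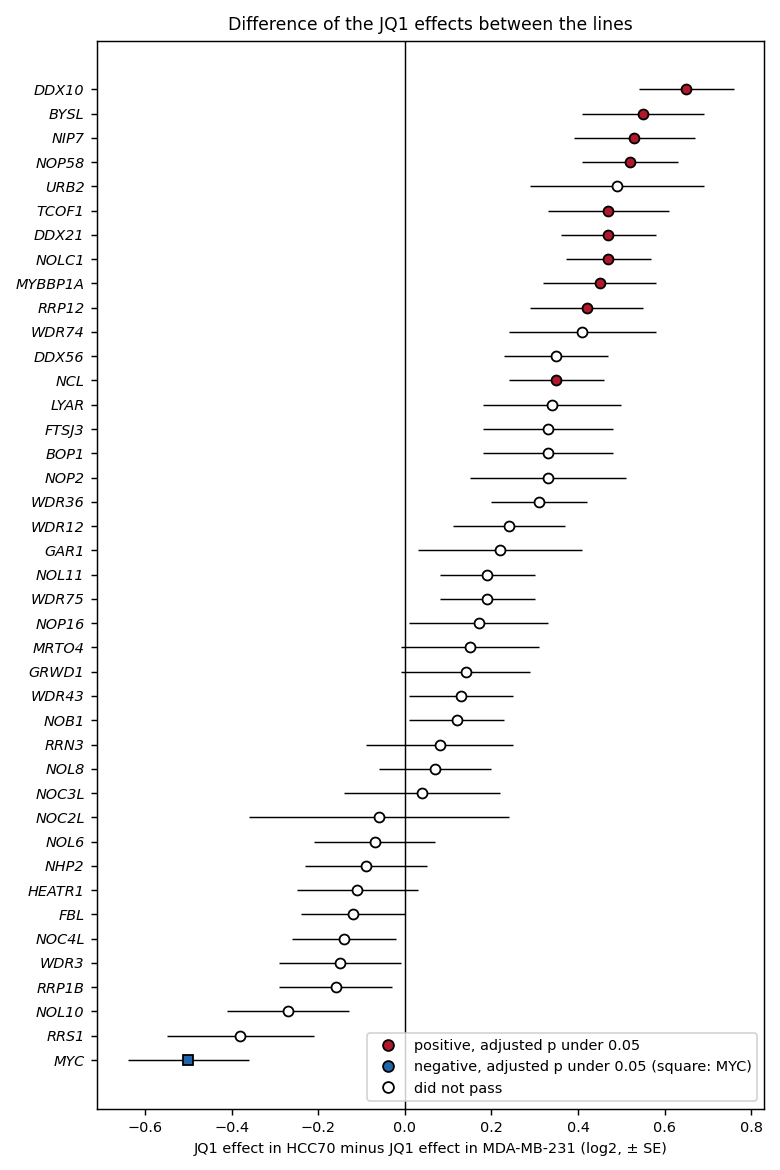
JQ1 effect in HCC70 minus JQ1 effect in MDA-MB-231 (x axis, log2, ± SE) for the 40 genes (circles) and MYC (square), ordered by size, with filled symbols for an adjusted p under 0.05. The 10 genes called lie at 0.35 to 0.65, and MYC lies at -0.50.

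Between the vehicle-treated lines, 16 of the 40 genes were lower in HCC70 than in MDA-MB-231, 9 were higher and 15 did not pass, beside 23.2% lower and 23.8% higher over all genes tested. The median difference was -0.15, against 0.03 over all genes. BYSL averaged 6.84 ± 0.057 (standard deviation, SD, n = 3) in HCC70 vehicle and 8.34 ± 0.10 in MDA-MB-231 vehicle, a 2.82-fold difference (limma adjusted p = 3.9e-08). NOC3L, LYAR and DDX10 were lower in HCC70 by 1.26 ± 0.13, 1.22 ± 0.11 and 0.89 ± 0.076 on the log2 scale. In the other direction RRN3 was higher in HCC70 by 0.94 ± 0.12, NOC2L by 0.75 ± 0.21, NIP7 by 0.75 ± 0.10 and URB2 by 0.65 ± 0.14. NIP7 averaged 9.16 ± 0.078 in HCC70 vehicle and 8.41 ± 0.091 in MDA-MB-231 vehicle. The small subunit group held 8 of the genes lower in HCC70 and 4 of those higher. This comparison and the difference of the JQ1 effects share the vehicle arrays.

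Further gene lists were counted beside the members. For comparison, 12.5% of all genes tested fell and 9.18% rose in HCC70, and 17.0% fell and 10.8% rose in MDA-MB-231. Of 57 other measured ribosome biogenesis genes, 14 fell and 3 rose in HCC70, and 28 fell and 3 rose in MDA-MB-231, with medians of -0.12 and -0.25. PAK1IP1, a large subunit assembly factor, fell by 0.50 ± 0.11 in HCC70 and by 1.09 ± 0.11 in MDA-MB-231. LTV1, an assembly and export factor of the small subunit, fell by 0.76 ± 0.14 in HCC70 and by 1.24 ± 0.14 in MDA-MB-231. SBDS, which helps release the anti-association factor eIF6 from new large subunits, rose by 0.64 ± 0.10 in HCC70, and RIOK1, an atypical kinase of late small subunit maturation, rose by 0.48 ± 0.095 in MDA-MB-231 (limma adjusted p = 0.00067 and 0.0019).

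Few genes for the ribosomal proteins themselves passed the test. Of 46 measured, 3 fell and 2 rose in HCC70, and 3 fell and 4 rose in MDA-MB-231, with medians of -0.13 and 0.00, and 0 passed the limma test of the difference between the lines. RPL28 rose in both lines, by 0.41 ± 0.089 in HCC70 and by 0.42 ± 0.089 in MDA-MB-231. Many ribosomal protein genes have near-identical pseudogene copies that array probes may also read. Of 73 mitochondrial ribosomal protein genes, 18 fell in HCC70 and 28 in MDA-MB-231, and 1 rose in each line. MRPL3 fell by 0.88 ± 0.090 in HCC70 and by 0.75 ± 0.090 in MDA-MB-231.

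Small nucleolar RNAs guide the modification of ribosomal RNA and are mostly cut from introns of host genes. Of 23 measured genes of a list that also holds Cajal body RNAs, 1 rose in HCC70 (4.35%) and 6 in MDA-MB-231 (26.1%), and 0 fell in either line. The shares of all genes that rose were 9.18% and 10.8%. The 1 that rose in HCC70 was SCARNA2, a relative that guides modification in Cajal bodies. It rose by 0.64 ± 0.12 in HCC70 and by 0.60 ± 0.12 in MDA-MB-231. SCARNA7, also a Cajal body RNA, rose by 0.65 ± 0.085 in MDA-MB-231. Of 10 snoRNA host genes, 0 passed in HCC70 and SNHG17 fell in MDA-MB-231, by 0.62 ± 0.11.

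**Figure D4:**
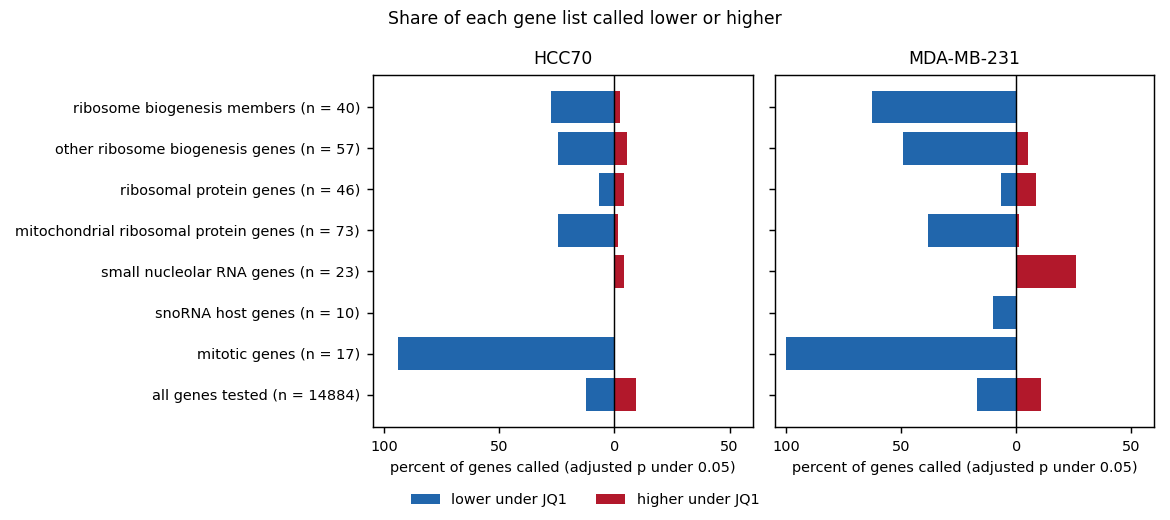
Percent of the genes of each list called lower (bars to the left of 0, blue) and higher (to the right, red) with JQ1 in HCC70 (left) and MDA-MB-231 (right), at a limma adjusted p under 0.05. Of the 40 members 27.5% were lower in HCC70 and 62.5% in MDA-MB-231, against 6.52% of ribosomal protein genes in each line.

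Within the MYC network, the MAX partners MXD1 and MXD4, which oppose MYC at E-boxes, rose in both lines, whereas MXD3, of the same family, fell in MDA-MB-231 by 0.56 ± 0.079 (limma adjusted p = 0.00015) and changed by -0.02 ± 0.079 in HCC70 (adjusted p = 0.89). MLX, whose protein pairs with some MXD proteins, fell by 0.54 ± 0.095 in MDA-MB-231 and changed by 0.14 ± 0.095 in HCC70 (adjusted p = 0.37). MXD1 changed by 0.65 ± 0.095 in HCC70 and 0.74 ± 0.095 in MDA-MB-231, and MXD4 by 0.54 ± 0.096 and 0.68 ± 0.096 in the same order. MXI1, another MAX partner, fell by 0.72 ± 0.094 in HCC70 and changed by 0.19 ± 0.094 in MDA-MB-231, which did not pass (limma adjusted p = 0.15). Of the 12 measured genes of this list, MYC included, 2 fell and 2 rose in HCC70, and 3 fell and 2 rose in MDA-MB-231. Of 6 RNA polymerase III genes, 1 fell and 2 rose in HCC70, and 2 fell and 1 rose in MDA-MB-231. POLR3G, a polymerase III subunit linked to stem and cancer cells, fell in both lines, by 0.86 ± 0.12 in HCC70 and by 0.75 ± 0.12 in MDA-MB-231. Of 4 RNA polymerase II genes, 0 passed in HCC70 and POLR2D fell in MDA-MB-231.

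Genes of cell division fell under JQ1 in both lines. Of 17 mitotic genes 16 fell in HCC70 and 17 in MDA-MB-231, with medians of -0.65 and -2.21. The mean log2 level of the 17 genes lay between 8.94 and 9.08 on the HCC70 JQ1 arrays, against 9.67 to 9.72 with vehicle. In MDA-MB-231 it lay between 7.46 and 7.61 with JQ1, against 9.57 to 9.72 with vehicle. The part of this shift in the change of the ribosome biogenesis genes was not tested. Markers of cell identity moved too, and likewise their part was not tested. EPCAM, an epithelial adhesion gene, changed by 0.26 ± 0.12 in HCC70 (limma adjusted p = 0.17) and by -1.74 ± 0.12 in MDA-MB-231, while the keratin genes KRT18 and KRT8 rose in both lines, by 0.85 ± 0.091 and 0.45 ± 0.11 in HCC70 and by 0.59 ± 0.091 and 0.37 ± 0.11 in MDA-MB-231. Of the 4 epithelial markers measured, 0 fell and 2 rose in HCC70, and 1 fell and 2 rose in MDA-MB-231. Of the 3 mesenchymal markers, FN1, which encodes fibronectin, fell by 3.12 ± 0.091 in HCC70 and by 1.40 ± 0.091 in MDA-MB-231. VIM fell by 1.72 ± 0.11 in HCC70 and changed by 0.15 ± 0.11 in MDA-MB-231 (limma adjusted p = 0.37), and ZEB1 did not pass in either line.

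The split of calls over all genes depended on the scale. As deposited, 57.7% of calls in HCC70 and 61.2% in MDA-MB-231 were falls, and after centring arrays on their medians 43.9% and 48.9% were. Among the 40 genes, centring gave 9 falls and 3 rises in HCC70, and 20 falls and 0 rises in MDA-MB-231. Over all 14884 genes, centring gave 1505 falls and 1925 rises in HCC70, and 2091 falls and 2185 rises in MDA-MB-231.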

How the data were processed

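Total RNA from 12 samples in 4 groups of 3 was measured on Human Gene 2.0 ST arrays. The deposited values are log2 signals of 53617 transcript clusters. The submitters' processing notes name RMA, oligo and limma, with no version or role, and no genome build of the files was given in the sources used. Of the clusters, 16098 had 1 gene symbol, 0 had several and 37519 had none. The brightest cluster was kept for each of the 779 genes with several, which left 14884 genes. Columns of other series numbered 0. Background correction and slide could not be varied from these values.

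A model with 1 mean per group was fitted over the 12 arrays (lmFit and eBayes of limma 3.58.1, R 4.3.3). It gave the effect of JQ1 over vehicle within HCC70 and within MDA-MB-231, the first effect less the second, and the gap between the vehicle groups of HCC70 and MDA-MB-231. Tests were two-sided, and genes with a Benjamini-Hochberg adjusted p under 0.05 over all 14884 genes were called. SE is that of the coefficient with the moderated variance. The procedure was tested on simulated data. The number of arrays limits the precision of every value.

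The members, lists, naming rule and alternatives were chosen with earlier results of these data known. Array values were given for MYC and the 6 members with the smallest p in each line, group values for the extremes of each role group, for members called higher, for members whose JQ1 effects differed and for the 4 largest differences in each direction between the lines. From other lists at most 2 called genes per direction and comparison were named. Promoter windows came from RefSeq (GRCh38.p14).

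Whether replicate numbers mark pairs was checked by correlating, across genes, the deviations of JQ1 and vehicle arrays from their group means. The 3 same-numbered pairs gave r of -0.0588, 0.0147 and 0.0702 in HCC70, and 0.155, 0.121 and 0.362 in MDA-MB-231. Differently numbered pairs ran from -0.142 to 0.135 in HCC70 and from -0.25 to 0.121 in MDA-MB-231. In MDA-MB-231 vehicle replicate 2 gave 0.121 with JQ1 replicates 1 and 2 alike, so these were not clearly told apart. The numbers were taken as possible pairs in MDA-MB-231, from the data and not from the labels. The HCC70 values did not show pairs, yet the block covered both lines. The main fit does not use the block.

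The alternatives were array weights, quantile normalization, centring, the replicate block, a fit within each line, robust moderation with a variance trend, a filter on genes at or below the median level, averaging of clusters per gene, leaving out each array, and leaving out the 3 arrays that stood apart.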

Additional observations from a re-analysis of the deposited data

Results flagged for a closer look

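The JQ1 effect differed between the lines, by the test of the difference itself, for MYC and for 10 ribosome biogenesis genes. The effect in HCC70 minus that in MDA-MB-231 was -0.50 for MYC. It was 0.65 for DDX10, 0.55 for BYSL, 0.53 for NIP7, 0.52 for NOP58, 0.47 for TCOF1, 0.47 for NOLC1, 0.47 for DDX21, 0.45 for MYBBP1A, 0.42 for RRP12 and 0.35 for NCL, all on the log2 scale. The change of MYC was more negative in HCC70, where 11 of the 40 genes fell beside 12.5% of all genes, than in MDA-MB-231, where 25 did beside 17.0% of all genes. A positive difference was called for 9.02% of all genes. With the replicate block the differences of MYC (adjusted p = 0.073), TCOF1 (0.095) and NCL (0.075) did not pass. Of the 10 genes 5 kept the call under every alternative run (DDX10, BYSL, NOP58, DDX21 and NOLC1), and 5 lost it under some, also when 1 array was left out. Of the mitotic genes, 17 of 17 also had a positive difference (median 1.45), and their part in these differences was not tested.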

How the results depend on the processing

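No direction of a called gene, or of MYC, changed under any alternative, and single-gene calls were kept in 1325 of 1476 cases and lost in 151. The number of genes called lower stayed within 1.5 times its value under each alternative. In MDA-MB-231 the lowest number was 18, in place of 25, with each line fitted alone. There the limma calls of NOLC1 (adjusted p = 0.052), WDR75 (0.053), NHP2 (0.055), NOL11 (0.073), NOB1 (0.11), GAR1 (0.12) and NCL (0.12) ended. The number called higher in HCC70, 1 as reported, was 0 with each line fitted alone and with clusters averaged per gene, 2 with quantile normalization, and 3 with the variance trend, with centred arrays, among genes above the median level and with array weights. In MDA-MB-231 quantile normalization called 1 gene higher in place of 0. Leaving out each array gave 8 to 11 genes lower and 0 to 1 higher in HCC70, 20 to 27 lower and 0 higher in MDA-MB-231, 5 to 10 with a positive difference and, between vehicle-treated lines, 15 to 19 lower and 7 to 10 higher. The difference for MYC ran from -0.59 to -0.42 (adjusted p = 0.017 to 0.079). With the replicate block it was -0.50 (adjusted p = 0.073), and without the 3 arrays that stood apart -0.46 (adjusted p = 0.078). In HCC70, where the check did not show pairs, the block also ended the calls of NOP16 (adjusted p = 0.075) and NOC4L (0.057). Between vehicle-treated lines it ended those of NOL10 (0.052, and 0.99 with its clusters averaged) and NOC4L (0.057). Beside those given with the results it ended no other call of a member or of MYC, it added the calls of RRS1 and GRWD1 in MDA-MB-231, and it gave 9 genes lower in HCC70, 26 in MDA-MB-231 and 8 with a positive difference. The causes were not tested. Where each line was fitted alone, fewer arrays estimated the spread.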
